A study of Homo sapiens with 4 samples.

Results

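The subtelomeric cytosines described here lay in the outer 2 Mb of 39 autosomal chromosome ends and had at least 10 reads in each of 4 bisulfite libraries. The rule took positions up to 2 Mb on the short (p) arm and positions within 2 Mb of the largest position listed for the chromosome on the long (q) arm. It left out the p ends of chromosomes 13, 14, 15, 21 and 22. It found 50422 cytosines, 12.7% of the 396398 autosomal cytosines with that coverage, and the other 345976 served for comparison. The members fell on 46031 distinct CpGs, of which 4391 were measured on both strands. There were between 65 (3p) and 2273 (5p) of them per end, with a median of 1353.

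The cells were H9, a human embryonic stem cell line in wide use, and H9 cells in which B3GALT5 was knocked out (B3GALT5-/-), here called WT and KO, and DNA methylation was read by bisulfite sequencing of captured DNA. B3GALT5 encodes a galactosyltransferase that makes globo-series glycolipids. Each genotype was profiled as primed cells in basal medium and as naive cells after conversion, WT in 5iLAF and KO in 2iLAF medium, so that genotype and medium cannot be told apart between the naive libraries. There was 1 library per group, nothing in the labels says how many knockout clones were used, and the knockout was not checked in these data. All comparisons of groups are therefore comparisons of single libraries, without a replicate check.

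A subtelomere is the stretch next to the telomere repeats. It is often rich in CpGs, carries sequence blocks and gene families shared between chromosome ends, and in pluripotent and somatic cells it is as a rule densely methylated, which depends in part on the DNA methyltransferase DNMT3B. Naive human embryonic stem cells are known for a lower genomic methylation than primed cells. How far chromosome ends share in that difference is the question the comparison with other cytosines addresses.

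Values given without library names follow the order WT primed, KO primed, then WT naive, KO naive. The libraries listed 2018895 to 2340330 cytosines outside chromosome Y, with 23916547 to 40697882 reads in sum. The members had medians of 18, 20, 18 and 28 reads, equal to those of the other autosomal cytosines. The tables list a cytosine only with 1 methylated read or more, so unmethylated sites are missing and levels near 0 are raised by selection. Of the members 2.15% had over 100 reads on average, and these sites took 23.9 to 35.2% of the members' reads. Repeated sequence can collect such numbers of reads, so that the place of these sites is uncertain.

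The promoter stretches below show what the measured subtelomeric sequence looks like; they were chosen after their values were seen, as examples of promoters that were much lower or little lower in the naive libraries. Each is the 250 bases before a transcription start in RefSeq (GRCh38.p14), 5′ to 3′ on the strand of the gene, with the CpGs measured in all 4 libraries in capitals. The hg19 position is where the CpGs of the RefSeq sequence coincided with listed CpGs and nowhere else on the chromosome; the bases between CpGs were not compared.
CTBP1 (chr4:1243779-1244028, minus strand): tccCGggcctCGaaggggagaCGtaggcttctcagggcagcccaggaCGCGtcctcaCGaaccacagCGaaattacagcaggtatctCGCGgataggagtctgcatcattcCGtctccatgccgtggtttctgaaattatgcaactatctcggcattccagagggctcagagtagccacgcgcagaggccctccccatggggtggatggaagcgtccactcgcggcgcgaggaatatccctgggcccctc
LINC01166 (chr10:134778794-134779043, minus strand): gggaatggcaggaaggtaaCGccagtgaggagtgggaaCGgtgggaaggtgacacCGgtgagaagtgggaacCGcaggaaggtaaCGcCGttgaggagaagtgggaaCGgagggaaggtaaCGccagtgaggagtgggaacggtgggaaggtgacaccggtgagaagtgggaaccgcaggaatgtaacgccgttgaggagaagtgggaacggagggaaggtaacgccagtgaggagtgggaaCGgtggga
GPS1 (chr17:80008558-80008807, plus strand): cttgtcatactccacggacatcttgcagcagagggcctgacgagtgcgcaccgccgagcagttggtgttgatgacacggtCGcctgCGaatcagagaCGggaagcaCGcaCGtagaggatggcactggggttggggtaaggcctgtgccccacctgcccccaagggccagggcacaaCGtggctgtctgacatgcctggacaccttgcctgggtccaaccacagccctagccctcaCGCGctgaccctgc
LINC02434 (chr4:189080957-189081206, plus strand): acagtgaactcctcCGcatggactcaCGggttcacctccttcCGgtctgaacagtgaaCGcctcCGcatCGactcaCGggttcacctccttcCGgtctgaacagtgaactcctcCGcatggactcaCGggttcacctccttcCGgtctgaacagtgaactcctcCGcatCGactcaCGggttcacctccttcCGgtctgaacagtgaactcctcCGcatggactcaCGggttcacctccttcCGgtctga
NXN (chr17:767352-767601, minus strand): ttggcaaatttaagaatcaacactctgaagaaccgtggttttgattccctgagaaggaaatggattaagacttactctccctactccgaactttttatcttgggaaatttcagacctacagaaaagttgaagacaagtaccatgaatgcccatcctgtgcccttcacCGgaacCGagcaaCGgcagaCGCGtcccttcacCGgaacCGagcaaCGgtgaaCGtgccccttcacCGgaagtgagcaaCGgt
The LINC02434 stretch repeats itself, with 99.3% of its bases identical after a shift of 100 bases. At the best shift between 10 and 100 bases the identity was 63.6% for LINC01166, 42.9% for NXN and 35.3% for GPS1. Longer shifts were not searched, and the LINC01166 stretch as printed repeats itself at a distance of over 100 bases.

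Subtelomeric cytosines were highly methylated in primed cells, and their naive levels lay less far below that than those of other cytosines with the same primed level. The mean level of the members was 81.1% in WT primed, 81.8% in KO primed, 61.1% in WT naive and 62.8% in KO naive cells; the SDs were 23.4, 23.2, 26.6 and 24.7 points over the 50422 cytosines. Both primed libraries were above both naive libraries. The other autosomal cytosines had means of 76.0, 77.1, 53.0 and 54.7%, so that the members stood higher in each library.

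The naive minus primed difference of WT cells was -19.9 points over the members and -22.96 points over the other cytosines. Because the members started higher, the other cytosines were reweighted to the members' distribution over 5-point bins of the mean primed level. These matched cytosines had a difference of -24.9 points, so the subtelomeric difference was smaller by 4.99 points. In KO cells the members differed by -19.0 points and the matched cytosines by -23.8 points, a gap of 4.79 points. The gap averaged 4.89 ± 0.137 points over both genotypes (SD, n = 2 pairs), had the same sign in 2 of 2, and gave p = 0.5 when signs were permuted in an exact two-sided test, which cannot go lower with this number of pairs. The 2 pairs differ in genotype and naive medium and were matched on the same mean primed level. They are not replicates, and the SD does not measure a spread between replicates. Weighted by reads, the members differed by -10.5 (WT) and -9.10 points (KO), and the gaps were 3.33 and 3.57 points. The members with over 100 reads took 23.9 to 35.2% of the reads in those values. Their levels weighted by reads were 39.3, 39.6, 39.5 and 40.3%, so that primed and naive libraries were alike there. The other members stood at 78.7, 79.3, 59.6 and 61.2% with that weighting. With equal weights the members with over 100 reads had mean levels of 58.4, 58.9, 44.3 and 46.2%. Without them and with equal weights the differences were -20.1 (WT) and -19.1 points (KO), and the gaps 5.05 and 4.85 points.

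The gap showed at the top of the range of levels. In WT naive cells 30.7% of the members were at 80% or above (Wilson 95% interval 30.3 to 31.1%), against 22.5% of the matched cytosines. In KO naive cells the share was 30.2% (29.8 to 30.6%) against 20.2%. At 20% or below stood 9.99% of the members in WT naive and 8.27% in KO naive cells, against 11.8% and 8.96% of the matched cytosines. These intervals, here and below, cover counting error only. At single sites 78.6% of the members were lower in WT naive than in WT primed cells, against 83.2% of the matched cytosines. In KO cells these shares were 84.0% and 88.5%.

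Grouped by the mean of both primed libraries, the members separated from the other cytosines where primed methylation was high. The 25109 members at 90 to 100% primed level stood at 71.3% in WT naive and 73.8% in KO naive cells, and the other cytosines of that class at 65.2% and 68.1%. Their differences were thus smaller by 5.92 (WT) and 5.72 points (KO). In the class at 80 to 90% the gaps were 5.88 and 5.27 points, and in the class at 60 to 80% they were 4.50 and 4.12 points. Below a primed level of 60% they were small, with 1.29 and 1.25 points from 40% up, 0.60 and 1.85 points from 20% up, and -0.39 and 0.93 points in the lowest class. Since a primed library took part in both the grouping and the difference, the classes were also made from the other genotype's primed library. The gaps were then 5.02 and 5.10 points in the highest class, and 0.37 and 1.79 points at 40 to 60%.

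**Figure D1:**
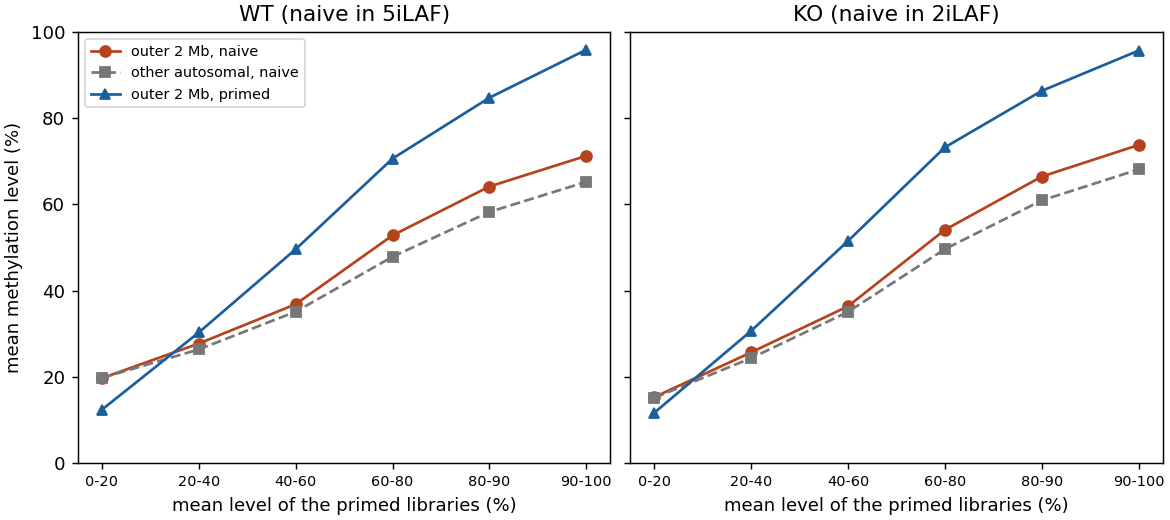
Mean methylation level (percent, y axis) by class of the mean level of both primed libraries (percent, x axis), for WT on the left and KO on the right; triangles are the primed and circles the naive level of the outer 2 Mb, squares the naive level of the other autosomal cytosines. The naive levels of the outer 2 Mb lie above those of the other cytosines in both genotypes from the class at 20 to 40% upward; in the highest class they are 71.3 against 65.2% (WT) and 73.8 against 68.1% (KO).

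The gap was not even over the outer 2 Mb and reached beyond it. Members within 250 kb of the end had lower levels than those farther in, at 74.3% in WT primed, 74.8% in KO primed, 55.6% in WT naive and 56.8% in KO naive cells. In that outermost band the gap to matched cytosines was 3.44 (WT) and 3.69 points (KO), and 7.63% of its 8753 members had over 100 reads. Between 250 and 500 kb the levels were 83.5, 84.0, 64.4 and 65.8%, the gaps were 6.71 and 6.26 points, and 0.656% of the members had over 100 reads. From there inward the gaps were 5.56 and 4.97 points up to 1000 kb, then 4.90 and 5.04 points up to 1500 kb, and 3.87 and 3.78 points in the innermost band. Outside the rule, cytosines at 2 to 5 Mb from the end had gaps of 3.07 and 2.46 points. At 5 to 10 Mb the gaps were 0.55 and 0.34 points, and beyond 10 Mb they were -0.41 and -0.32 points. The limit of 2 Mb therefore marked no step in these data.

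**Figure D2:**
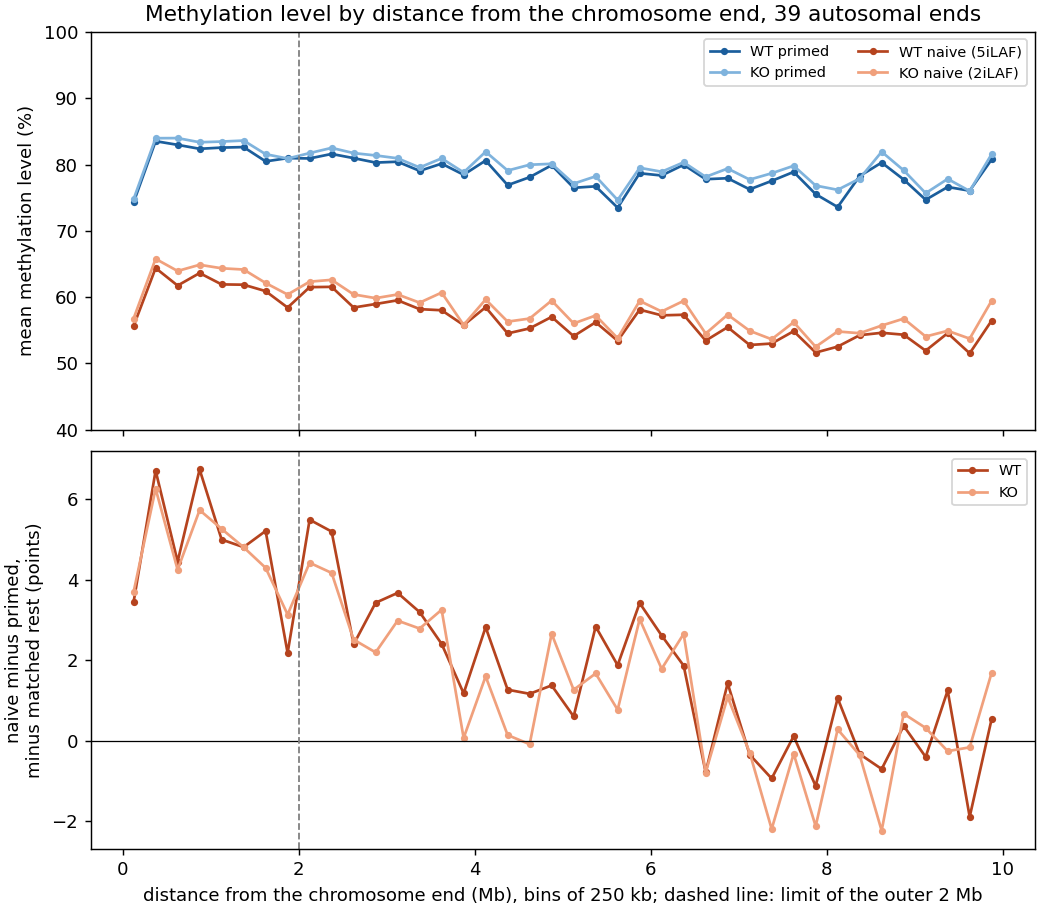
Upper panel: mean methylation level (percent) in bins of 250 kb by distance from the chromosome end (Mb), 1 line per library; lower panel: the naive minus primed difference less that of the cytosines matched on primed level (points). Among the bins of the outer 2 Mb, levels are lowest in the outermost, and the difference from the matched cytosines is above 0 in every bin of the outer 2 Mb, from 2.18 to 6.74 points in WT cells.

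CpG density moved with the distance. The density used here is the number of other measured CpGs within 250 bp, with a median of 9 for the members and 3 for the other autosomal cytosines. Its median was 12 in the outermost 250 kb, 7 at 1500 to 2000 kb and 3 beyond 5 Mb. Members with 21 or more neighbours stood at 83.0, 83.5, 66.4 and 68.5%, while other cytosines of that density stood at 71.8, 73.8, 51.4 and 54.8%. In this class the gap to cytosines matched on primed level was 7.46 (WT) and 6.24 points (KO). For members with 0 to 2 neighbours it was 1.59 and 1.79 points. It was 3.63 and 2.99 points with 3 to 5 neighbours, 4.24 and 3.53 with 6 to 10, and 5.94 and 5.09 with 11 to 20. In both genotypes the gap was thus largest in the densest class. With density added to the matching over all members, the gap was 4.72 (WT) and 4.03 points (KO).

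**Figure D3:**
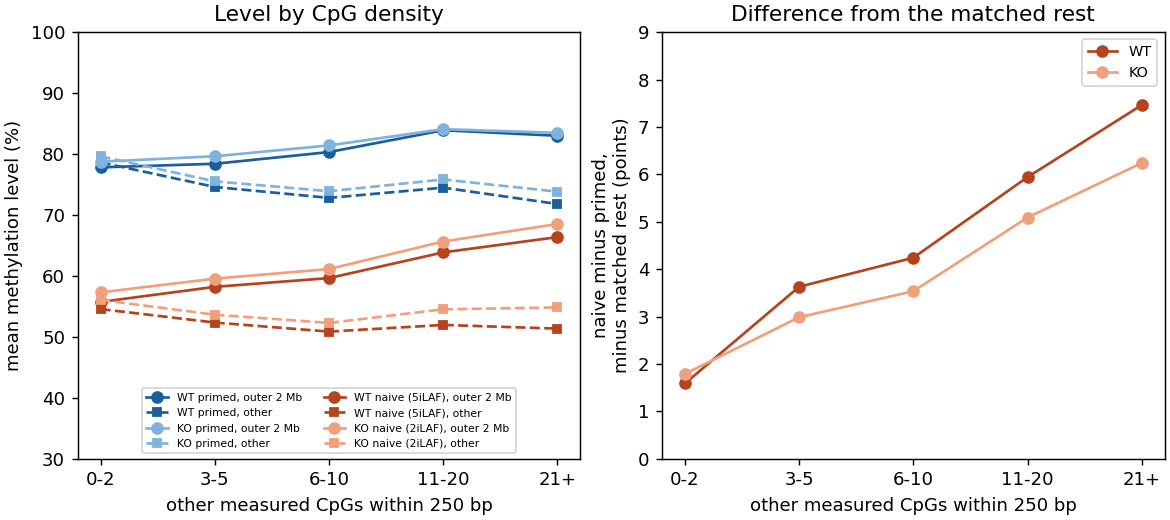
Left: mean methylation level (percent) of the outer 2 Mb (solid) and of the other autosomal cytosines (dashed) in each library, by the number of other measured CpGs within 250 bp. Right: the naive minus primed difference of the outer 2 Mb less that of other cytosines of the same density matched on primed level (points); it goes from 1.59 to 7.46 points in WT and from 1.79 to 6.24 points in KO cells.

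Naive levels were lower than primed levels at each of the 38 ends with at least 100 members, in both genotypes. The difference over these ends was -20.3 ± 3.91 points (WT) and -19.3 ± 3.77 points (KO) (mean and SD over ends of 1 library pair). The gap to matched cytosines was above 0 at 31 ends in WT and 32 in KO cells, 31 of them in both, and at or below 0 in both at 6. WT and KO differences went together over the 38 ends (Pearson's r 0.95, Spearman's rho 0.89); this is a description of ends that share libraries, depth and base composition.

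The ends at the extremes were named by rank of the difference averaged over genotypes. End 3p, with 65 members and differences of -35.2 (WT) and -27.9 points (KO), had too few members to be ranked. Among the ranked ends 14q differed most. Its 1189 members stood at 73.2% in WT primed, 74.2% in KO primed, 44.1% in WT naive and 44.4% in KO naive cells, and the gaps to matched cytosines were -6.94 and -7.69 points. Ends 1q, 19q, 20p and 12p followed, with WT differences of -27.9, -25.6, -26.0 and -24.1 points and KO differences of -24.4, -24.2, -23.7 and -23.8 points. These 5 ends were also below the matched cytosines in both genotypes. The median density was 7 at 14q and 6.5 at 19q, and at 1q, 20p and 12p it was at most 3.

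At the other extreme, 6q kept more methylation in the naive libraries than matched cytosines, by 11.8 (WT) and 11.4 points (KO). Its 998 members stood at 86.4, 87.0, 71.0 and 72.95% in the 4 libraries. Ends 18q, 21q and 5p were alike, with naive levels of 70.5 and 71.2%, 70.1 and 72.5%, and 67.0 and 67.1%. Their gaps were 10.8 and 9.14 points, 9.98 and 10.2 points, and 9.49 and 7.86 points. The median density was 9 at 6q, 11 at 18q and 21q, and 10 at 5p.

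End 9p had the smallest difference of the 38, -7.05 (WT) and -6.32 points (KO), and its primed levels were already low. The 446 members stood at 41.8, 41.4, 34.8 and 35.1%. Within 250 kb of the end, 275 members were at 21.6, 20.7, 23.6 and 22.5%. The means of all 4 libraries were thus alike there, and 30.9% of these sites had over 100 reads. Single tiles could differ, as did the first tile of 9p listed, given below, which lies in this stretch. The other 171 members of 9p were at 74.3, 74.7, 52.7 and 55.3%, with none over 100 reads.

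**Figure D4:**
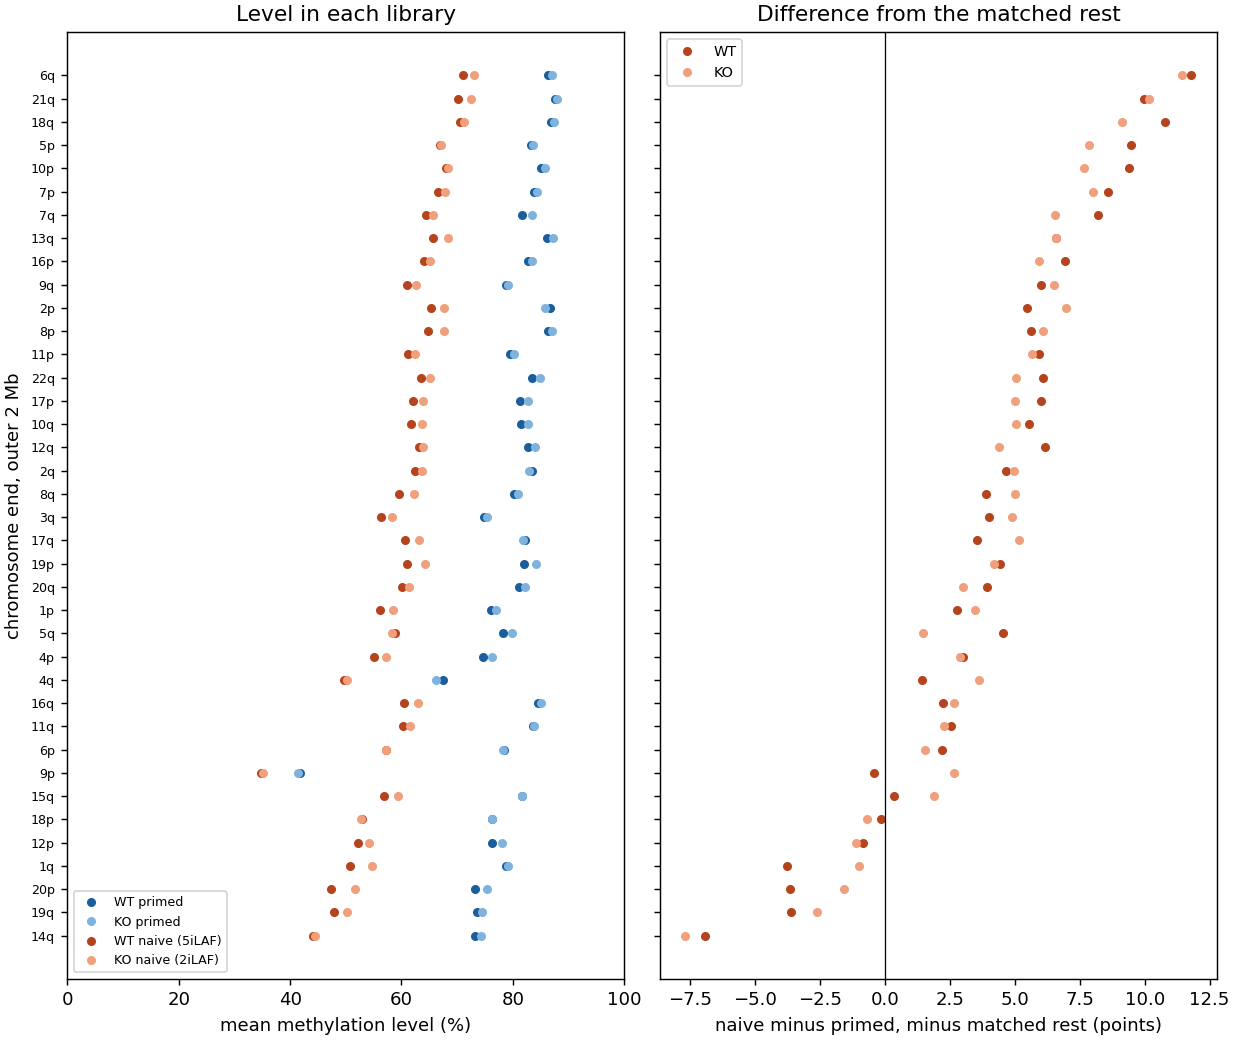
Left: mean methylation level (percent) at each of the 38 chromosome ends with at least 100 members, 1 point per library. Right: the naive minus primed difference less that of matched cytosines (points), for WT and KO; ends are ordered by its mean, from 14q at the bottom (-6.94 in WT) to 6q at the top (11.8 in WT), and 31 ends are above 0 in both genotypes.

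Reads of single cytosines were then tested by Fisher's exact test (two-sided, Benjamini-Hochberg over the 411226 cytosines of autosomes and X), and a cytosine was called where the adjusted p was under 0.05 and the levels were 25 points or more apart. In WT cells 11829 members were lower in the naive library, 23.5% of them, while 26.7% of all cytosines tested and 29.5% of the cytosines matched on primed level were. In KO cells 11205 members were lower, 22.2%, against 27.4% of all tested and 30.1% of the matched. Higher in the naive library were 384 members in WT cells (0.762%, against 0.828% of all tested and 0.601% of the matched). In KO cells 209 were higher (0.415%, against 0.392% of all tested and 0.279% of the matched). Lower in both genotypes were 5303 members, 44.8% of the WT and 47.3% of the KO calls, against 48.0% and 46.8% over all cytosines tested. These tests compare libraries, not conditions, and take reads as independent. With reads scaled down by the disagreement between the strands of a CpG, 129 members were called lower in WT and 115 in KO cells, 0.256 and 0.228%, against 0.260 and 0.272% of all tested.

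In tiles of 1 kb with at least 5 measured cytosines, a tile counted as lower when its mean was lower by at least 25 points and at least 80% of its cytosines moved that way, a rule of size with no p. Of the 3149 subtelomeric tiles 1054 (33.5%) were lower in WT naive cells, against 37.6% of all 19748 autosomal tiles and 43.0% of tiles matched on primed level. In KO cells 874 (27.8%) were lower, against 34.4% of all and 39.2% of matched tiles. Higher were 16 tiles in WT (0.508%, against 0.496% of all and 0.286% of matched tiles) and 9 in KO cells (0.286%, against 0.213% and 0.111%). The lower tiles shared by both genotypes numbered 591, 56.1% of the WT and 67.6% of the KO list, against 61.9% and 67.7% over all autosomal tiles, and 2 higher tiles were shared, against 14 over all autosomal tiles.

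High methylation in both states was more frequent in subtelomeric tiles than elsewhere. Among subtelomeric tiles at 90% or above in the mean of both primed libraries, 260 of 1278 were at 80% or above in both naive libraries, which is 20.3% (Wilson 95% interval 18.2 to 22.6%). Elsewhere on the autosomes this held for 499 of 4652 tiles, 10.7% (9.87 to 11.6%). Of the 1407 subtelomeric tiles with at least 10 cytosines, 169 were at 80% or above in all 4 libraries. The share of all autosomal tiles under this second rule is not given here, so this count is not compared with others. The 10 of these 169 tiles with the highest lower naive level lay at 9 ends. Their naive levels ranged from 89.9 to 96.6% in WT and from 89.9 to 93.7% in KO cells. Tile chr21:47804001-47805000, 297 kb from the end of 21q, held 65 cytosines at 95.2% ± 6.59 in WT primed, 95.5% ± 5.42 in KO primed, 91.5% ± 8.94 in WT naive and 90.8% ± 6.57 in KO naive cells (SD over cytosines, here and for the tiles below). Tile chr11:484001-485000 held 35 cytosines at 96.2, 94.98, 92.98 and 90.3%. Tile chr11:134831001-134832000 held 22 cytosines at 90.9, 92.5, 90.9 and 93.2%, so that neither naive library was below its primed library.

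Among the 1407 subtelomeric tiles with at least 10 cytosines, 421 (29.9%) were lower in the WT naive library and 341 (24.2%) in that of KO, against 35.4% and 30.5% of all 6424 such tiles. In the outer 2 Mb, 5 tiles were among the 10 largest decreases of both. Tile chr16:1544001-1545000 held 11 cytosines at 86.6% ± 11.7 in WT primed, 86.4% ± 15.9 in KO primed, 11.2% ± 5.50 in WT naive and 11.5% ± 9.501 in KO naive cells. Tile chr19:1440001-1441000 held 22 cytosines at 91.0, 88.8, 12.8 and 15.6%, and tile chr8:1796001-1797000 held 15 at 94.8, 97.4, 18.1 and 20.8%. In these tiles the primed and naive levels were far apart in both genotypes. Among the 10 largest decreases of WT cells, primed levels were 84.0 to 97.4% and naive levels 6.87 to 23.6%. Among those of KO cells they were 84.8 to 97.4% and 10.2 to 21.8%. Since the ranking used these same libraries, such differences are their extremes.

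Increases were few here as over all tiles. Of the 1407 subtelomeric tiles with at least 10 cytosines, 2 in WT and 3 in KO cells passed the rule of size as higher. The share of all tiles of that size is not given here. With at least 5 cytosines the shares were 0.508% against 0.496% of all tiles in WT and 0.286% against 0.213% in KO cells. The adjacent tiles chr5:497001-498000 and chr5:498001-499000, near the end of 5p, led in KO cells. The first, with 14 cytosines, stood at 53.5% ± 28.2 in WT primed, 35.4% ± 19.5 in KO primed, 71.5% ± 24.99 in WT naive and 70.95% ± 10.7 in KO naive cells. The second, also with 14, stood at 51.0, 42.4, 66.5 and 70.9%. Both naive libraries were thus above both primed libraries at this place. In WT cells the larger of the increases, at chr6:170590001-170591000, went with a low WT primed level: its 11 cytosines stood at 34.4% ± 8.57 in WT primed, 81.7% ± 10.1 in KO primed, 64.5% ± 10.7 in WT naive and 74.2% ± 7.14 in KO naive cells.

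Promoters give the members a gene context. Of 33725 autosomal RefSeq promoter sequences, from 250 bases before to 50 after a start, 65 windows of 64 genes at 31 ends could be placed in the outer 2 Mb and held at least 5 members. Placement needed at least 8 listed CpGs, so promoters in unmethylated CpG islands were missed, and the table gives more than a single start for some genes. The windows were therefore mostly methylated, with medians over windows of 88.0% in WT primed, 89.95% in KO primed, 47.6% in WT naive and 52.9% in KO naive cells. In the naive library 60 were lower in WT and 64 in KO cells, 27 of them by at least 25 points in both, and 1 was higher in both. Promoters elsewhere were not placed, so these counts describe only the 65 windows and are not compared with others.

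Windows with large decreases belonged to genes of varied function. The CTBP1 window, at a start of the gene for a transcriptional corepressor, held 11 cytosines at 93.1% ± 8.08 in WT primed, 95.1% ± 7.13 in KO primed, 28.5% ± 15.5 in WT naive and 41.1% ± 11.9 in KO naive cells. The GPS1 window, of a subunit of the COP9 signalosome, held 11 cytosines at 92.2% ± 11.8, 89.95% ± 13.3, 41.4% ± 26.1 and 34.3% ± 13.05 in the same order. In both windows both naive libraries were far below both primed libraries. Among windows with 5 to 8 cytosines, SLC6A19, a neutral amino acid transporter, stood at 93.7, 95.5, 13.8 and 32.1%. ZDHHC11, a palmitoyltransferase, stood at 86.8, 89.9, 19.3 and 16.6%, and NINJ2, an adhesion protein, at 71.8, 86.0, 14.1 and 13.8%. AURKC, a meiotic Aurora kinase, had 7 cytosines at 97.8, 84.4, 50.3 and 42.2%.

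The noncoding LINC01166 and LINC01168 start in opposite directions from the same stretch of chromosome 10, and their windows overlap. The LINC01166 window held 11 cytosines at 90.4% ± 8.74 in WT primed, 90.1% ± 6.09 in KO primed, 11.1% ± 7.65 in WT naive and 39.5% ± 8.47 in KO naive cells. The KO naive level was therefore 28.4 points above the WT naive level, while the primed levels were alike. The LINC01166 stretch repeats itself, and whether reads were placed correctly there was not checked. LINC02434, whose stretch above also repeats itself, held 23 cytosines at 92.9% ± 8.06, 92.4% ± 5.88, 63.8% ± 7.21 and 81.2% ± 8.99. Here too the KO naive library was higher than the WT naive library.

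Some other windows, such as those of NXN and FOXD4, differed less. NXN, which encodes nucleoredoxin, held 15 cytosines at 97.3% ± 3.66 in WT primed, 97.8% ± 3.91 in KO primed, 86.3% ± 7.16 in WT naive and 83.1% ± 9.41 in KO naive cells, and was at 80% or above in all 4 libraries, as was the window of LOC107985162. FOXD4, a forkhead transcription factor gene at 9p with near-identical copies elsewhere, was the window higher in both genotypes. Its 25 cytosines stood at 29.3% ± 15.2, 27.1% ± 16.2, 37.2% ± 14.1 and 33.0% ± 11.6. TUBB8, an oocyte beta-tubulin gene at 10p, held 33 cytosines at 61.95, 66.97, 54.95 and 40.9%, and its near copy TUBB8B at 18p held 24 at 66.7, 63.9, 45.8 and 42.7%. Reads of such copies can be assigned to the wrong place, so the values of FOXD4, TUBB8 and TUBB8B are uncertain.

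Repeats within the measured stretches were sought at shifts of 10 to 100 bases only, so longer units such as that of LINC01166 were missed. In 2 of 65 upstream stretches (3.08%), those of LINC02434 and LINC02714, at least 80% of the bases were identical at such a shift. LOC124900837 fell just short with 79.4%, and ZBTB46-AS1 had 71.0%, so the count depends on these limits. Over 18788 distinct autosomal promoter stretches with at least 8 CpGs the share at 80% or above was 0.309%. Some of the 65 stretches had fewer CpGs, such as MLC1 with 4, and all 65 had passed placement and coverage limits. The 2 shares are therefore of unlike sets.

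**Figure D5:**
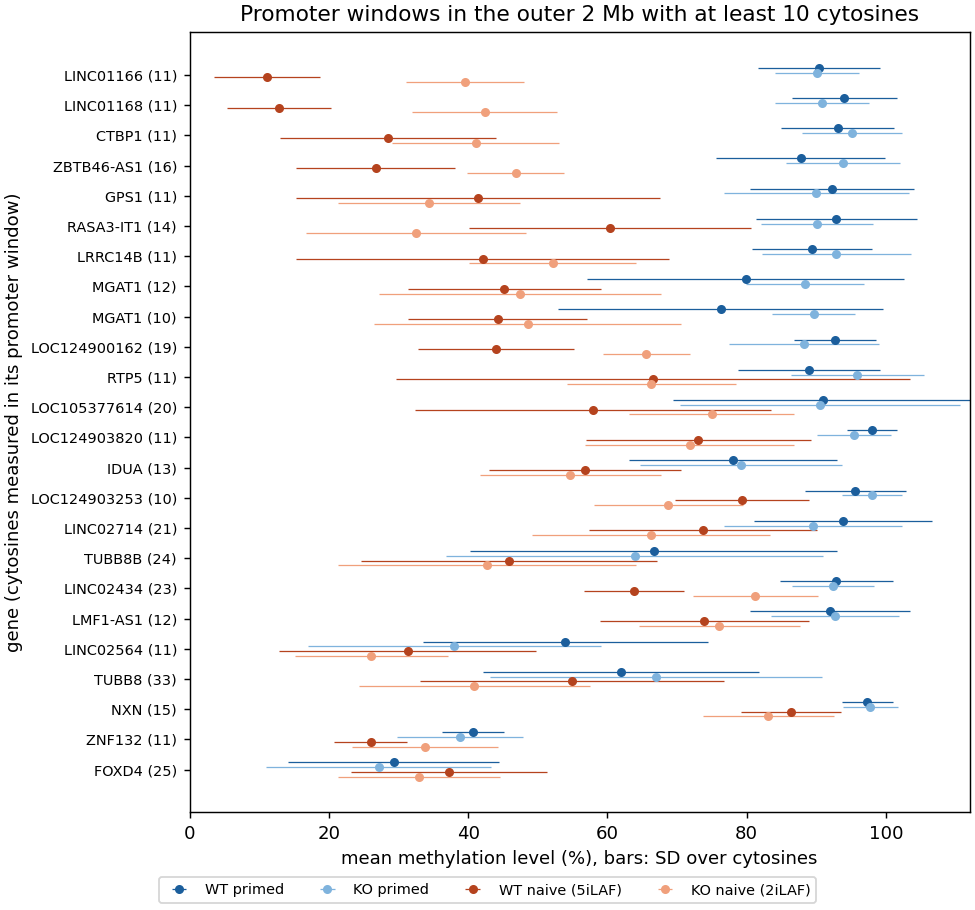
Mean methylation level (percent, x axis) of the 24 promoter windows in the outer 2 Mb with at least 10 measured cytosines, 1 row per window with the number of cytosines in brackets; points are the 4 libraries and bars the SD over cytosines, which can reach past 100%. Windows are ordered by the naive minus primed difference averaged over genotypes, from LINC01166 at the top (11.1% in WT naive) to FOXD4 at the bottom (37.2% in WT naive).

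Between genotypes the members differed little on average. The KO primed level was 0.736 points above the WT primed level, against 0.898 points over matched cytosines. It was higher at 31 of 38 ends, but by more than over matched cytosines at only 13. Weighted by reads the KO minus WT primed difference was 0.0433 points. The KO naive level was 1.67 points above the WT naive level, against 2.02 points over matched cytosines. It was higher at 35 of 38 ends, but by more than over matched cytosines at only 15. Over the ends the differences were 0.674 ± 0.784 points between the primed and 1.66 ± 1.12 points between the naive libraries. By Fisher's exact test with Benjamini-Hochberg adjustment, 134 members were lower (0.266%, against 0.323% of all tested) and 195 higher (0.387%, against 0.603%) in KO than in WT primed cells. Between the naive libraries 190 were lower (0.377%, against 0.527%) and 409 higher (0.811%, against 0.911%). Of the matched cytosines 0.236% were lower and 0.468% higher between the primed libraries, and 0.478% and 1.01% between the naive libraries.

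Of the 3149 tiles, 16 were lower in KO than in WT primed cells (0.508%, against 0.582% of all tiles) and 19 higher (0.603%, against 1.18%). Between the naive libraries 33 were lower (1.05%, against 1.23%) and 66 higher (2.10%, against 2.55%). For tiles matched on primed level these shares were 0.385% and 0.854% between the primed libraries, and 1.14% and 3.16% between the naive libraries. The primed differences were led upward by the 6q tile already given and downward by chr8:1923001-1924000, whose 10 cytosines stood at 67.6% ± 21.8 in WT primed, 36.2% ± 15.2 in KO primed, 25.3% ± 8.99 in WT naive and 16.3% ± 7.33 in KO naive cells. Tile chr4:207001-208000 was lower in KO cells in both states, with 15 cytosines at 58.1, 30.03, 44.4 and 14.6%. Between the naive libraries the first tile of 9p listed, chr9:10001-11000, led the increases: its 14 cytosines stood at 68.5% ± 8.64, 81.4% ± 4.93, 23.3% ± 9.21 and 66.2% ± 11.5. At 7q, tile chr7:158597001-158598000 held 13 cytosines at 84.8, 82.3, 21.1 and 62.3%. Both were lower in WT naive than in KO naive cells while their primed levels were closer together. In the opposite direction, chr10:1068001-1069000 held 15 cytosines at 84.2, 81.8, 48.6 and 17.1%. Whether genotype, medium or the single cultures go with these naive differences cannot be told apart.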

How the data were processed

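Genomic DNA of 4 H9 samples was captured with a methylation capture kit and bisulfite sequenced, with a conversion of 99% by spiked-in phage DNA, per the labels' protocols. Positions are those of hg19 (GRCh37), as the submitters' processing notes name it. How reads were aligned, called and deduplicated is not given in the sources used here. Raw read counts of total, context and methylated coverage stand in the deposited tables, per the file headers, for each cytosine and strand of a library. The level the authors gave is a fraction, which equalled methylated over context counts to within 5.0e-07, and was multiplied into percent here. No table listed a cytosine with 0 methylated reads.

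Cytosines with at least 10 context reads in all 4 libraries were kept, strands apart, and weighed equally. Matching reweighted the other autosomal cytosines to the members over 5-point bins of the mean primed level. Cytosines were tested with Fisher's exact test and Benjamini-Hochberg adjustment over 411226 cytosines. With 1 library per group no p is given for a comparison of single groups. The gap to the matched cytosines, averaged over both genotypes, has an exact permutation p, which cannot go below 0.5 with 2 pairs. Shares have Wilson 95% intervals. The members, rule, bands and lists were chosen with earlier results of these data known. Named regions were the 5 lowest and 5 highest ends with at least 100 members, the 10 largest decreases and increases per comparison among tiles of at least 10 cytosines that met the size rule, and the 10 tiles at 80% or above in all 4 libraries with the highest lower naive level; the text gives a selection. Promoter windows and sequences were added after the values were seen: RefSeq sequences (GRCh38.p14) were placed by the spacing of their CpGs among the listed hg19 positions, at a single place per chromosome and with an offset shared within 100 bases by another promoter of that end. No coordinates were converted, and an hg19 annotation was not used here.

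In simulations of 411226 cytosines at the depths of these libraries, with reads drawn independently, 46.0% of cytosines lowered by 50 points and 10.9% of those lowered by 30 were called for WT naive against primed, and 64.8% and 18.9% for KO. Alternatives varied the coverage minimum, the outer distance, weights, strands, unlisted sites, matching and thresholds. Python 3.11.15, numpy 2.4.6, pandas 2.3.3, scipy 1.17.1, numba 0.67.0 and matplotlib 3.10.9 were used.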

Additional observations from a re-analysis of the deposited data

Results flagged for a closer look

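Of 53 named tiles 8, and of 65 promoter windows 4, had naive minus primed differences of opposite sign in WT and KO cells. These differences between the genotypes were not tested, and each sign rests on 1 library pair. Some named tiles were ranked by differences between the genotypes or by increases in a single genotype, which favours opposite signs. The share over all tiles is not given here, so the count says nothing about chromosome ends as such. Tile chr6:170590001-170591000 differed by 30.1 (WT) and -7.51 points (KO), and tile chr12:132690001-132691000, which holds a start of GALNT9, by 26.95 and -10.1 points. On chromosome 22, tiles chr22:50084001-50085000, chr22:50250001-50251000 and chr22:50885001-50886000 differed by 14.4, 10.2 and 16.4 points in WT and by -16.2, -39.3 and -31.3 points in KO cells. Tile chr4:1522001-1523000 went the other way, with -7.92 (WT) and 17.2 points (KO). The remaining tiles were methylated in all 4 libraries and differed by a few points at most, -3.62 and 1.28 points at chr8:144995001-144996000 and 0.786 and -0.592 points at chr19:536001-537000.

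The 4 promoter windows had 5 or 6 measured cytosines each. TNFRSF18, a receptor of the tumour necrosis factor family, differed by 8.48 (WT) and -48.3 points (KO), with levels of 12.5% in WT primed and 68.6% in KO primed cells. LTC4S, leukotriene C4 synthase, differed by 23.1 and -16.2 points. ADGRA1, an adhesion G protein-coupled receptor, differed by 25.6 and -1.80 points, and LOC124901470 by 12.5 and -5.88 points.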

How the results depend on the processing

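No paired analysis was possible because each group has 1 library, so a fit with a replicate block could not be made; only the 2 genotypes were set side by side as pairs, as given above. Of 100 values recomputed under the alternatives, none reversed and 60 moved beyond counting error or, for counts, by over 1.5 times; the rest did not. The gap to matched cytosines stayed above 0, from 3.33 to 5.44 points in WT and from 3.57 to 5.18 points in KO cells. Leaving out single ends gave 4.77 (5p) to 5.28 points (14q) in WT and 4.62 (21q) to 5.10 points (14q) in KO cells. Unless stated, the cause of a shift was not tested.

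With a minimum of 5 reads the KO difference was -19.5 points, its gap 4.57 points, the KO minus WT naive difference 1.13 points, and 2227 tiles in WT and 2111 in KO cells were lower, more tiles being tested (31.4 and 29.8%, against 36.9 and 36.2% of all tiles). At 20 reads the differences were -17.7 and -16.5 points, the WT gap 5.30 points, the KO minus WT primed difference 0.492 points, and, with fewer sites, 3229 and 2808 cytosines (29.3 and 25.5%, against 32.7 and 30.3% of all) and 182 and 152 tiles (26.0 and 21.7%, against 29.3 and 24.7%) were lower. The outer 1 Mb gave -19.4 and -18.7 points, a KO minus WT naive difference of 1.48 points, 7614 and 7222 cytosines (23.7 and 22.5%, against 26.7 and 27.4% of all) and 647 and 558 tiles (33.1 and 28.5%, against 37.6 and 34.4%), out of fewer. At most 100 reads gave -20.1 and -19.1 points. Weighting by reads gave -10.5 and -9.10 points, gaps of 3.33 and 3.57 points, and KO minus WT differences of 0.0433 points (primed) and 1.42 points (naive). Filling in unlisted sites at 0 gave -19.2 and -18.4 points with gaps of 4.39 and 4.31 points. With 10 reads drawn per cytosine the gaps were 5.16 and 5.02 points, and with less depth 1519 and 998 cytosines were lower (3.01 and 1.98%, against 3.72 and 2.31% of all). Merged strands gave -19.7 points in WT and a KO minus WT naive difference of 1.49 points.

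Gaps were 5.44 and 5.18 points when matched on the primed library of the same genotype, 4.15 and 4.18 points on that of the other genotype, 4.72 and 4.03 points with density, and 4.02 and 4.03 points with each end weighed equally. A difference of 50 points called 6230 and 4073 cytosines (12.4 and 8.08%, against 15.3 and 10.4% of all), scaled reads 129 and 115 (0.256 and 0.228%, against 0.260 and 0.272%), and tiles of at least 10 cytosines 421 and 341 (29.9 and 24.2%, against 35.4 and 30.5%). Added after seeing the data were matching on density and coverage together (4.58 and 3.99 points), leaving out 9p (differences of -20.04 and -19.1 points) and leaving out the outermost 250 kb (-20.2 and -19.2 points, gaps of 5.31 and 5.02 points).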

Other observations

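The ends of chromosome X lay outside the rule and differed from each other. In the outer 2 Mb of Xp, where the pseudoautosomal region lies, 950 cytosines stood at 77.2% in WT primed, 79.4% in KO primed, 61.9% in WT naive and 64.5% in KO naive cells. The naive minus primed differences there were -15.3 (WT) and -14.9 points (KO). The 400 cytosines of the outer 2 Mb of Xq stood at 65.9, 66.0, 41.9 and 44.7%, with differences of -24.0 and -21.3 points. The 13478 other cytosines of X stood at 61.8, 62.3, 41.9 and 42.1%, with differences of -19.9 and -20.1 points.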
